A study of Mus musculus with 10 samples.

Results

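Hedgehog signalling was followed through 8 genes chosen by name: the ligand Shh, the receptor Ptch1, the transducer Smo, the transcription factors Gli1, Gli2 and Gli3, and the inhibitors Hhip and Sufu. Of these 8 genes, 5 (Shh, Ptch1, Smo, Hhip and Sufu) were among the 16875 gene names of the table, and all 5 had a mean of at least 0.5 FPKM (fragments scaled to the length of the transcript and to all fragments mapped in the tumor), the limit set for testing. Gli1, Gli2 and Gli3 were not analysed here. The 10 samples were colon tumors of the AOM/DSS model, in which the carcinogen azoxymethane (AOM, 1 injection) is followed by 3 cycles of 2% dextran sulfate sodium (DSS), an irritant of the colon, in the drinking water. The control tumors (n = 5 tumors) were titled Wls WT. Their genotype is given here as Wls flox/flox, which the study names for its control tumor organoids. Tumors of the second group, Villin-Wls cKO (n = 5 tumors), carried the same floxed alleles of Wls, which encodes the carrier that Wnt proteins need for secretion, together with Villin-Cre ERT2. All animals were on a C57Bl6 background and were 6 to 10 weeks old when the experiment began.

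In the Villin-Wls cKO mice, Cre was activated by 5 daily injections of tamoxifen at 80 mg/kg, the first 30 days before collection. Control tumors were without tamoxifen, as far as the study states, so that Cre, tamoxifen and the loss of Wls cannot be told apart. The Villin promoter is active in intestinal epithelium and its tumor cells, so that Wls in the stroma is not a target of this Cre. How many mice gave the tumors is not stated, and p-values measure the spread between tumors only. Wls itself was at 72.9 ± 7.06 FPKM in control tumors against 6.37 ± 4.89 in Villin-Wls cKO tumors (SD, n = 5 each), with no overlap. Xist and 4 genes of the Y chromosome also separated the groups completely, Xist being higher and the Y genes lower in Villin-Wls cKO tumors. Sex and genotype therefore cannot be told apart. Villin-Wls cKO tumors 2 and 3 stood apart by their squamous keratins and related markers, whose FPKM summed to 963 and 1241 over 5 genes, against at most 180 in any other tumor. Their Wls values, 11.6 and 11.7 FPKM, were also the highest of the Villin-Wls cKO group, in which the other tumors were between 2.03 and 3.61 FPKM.

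Hedgehog proteins are secreted signals. Without a ligand, the receptor Ptch1 holds the membrane protein Smo inactive. Ligand binding to Ptch1 releases Smo, and Gli transcription factors, which Sufu otherwise restrains, then activate target genes, among them Ptch1 and Hhip, so that both are commonly read as measures of pathway output as well as inhibitors of it. In the adult colon the epithelium is the main source of Ihh, and the cells that respond lie mostly in the stroma beneath it. Shh is an epithelial ligand of the embryonic gut and of the stomach.

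Among the 5 members, Ptch1 fell in Villin-Wls cKO tumors, and Shh, Hhip and Sufu had lower means without passing the threshold across all genes. Smo had nearly the same mean in both groups. The test was limma on log2(FPKM + 1) over 16757 genes, with a Benjamini-Hochberg adjusted p under 0.05 as the threshold. At this threshold 10.9% of all genes tested passed, 4.75% lower and 6.12% higher in Villin-Wls cKO tumors. One member of 5 passed in the lower direction and 0 in the higher. The median change of the 5 members, -0.50 on the log2 scale beside 0.0073 over all genes tested, is the value of Hhip itself, which reached the limit for testing only through its control tumors and so had to differ. The changes of the other 4 were -1.88, -0.67, -0.16 and 0.02. At an unadjusted p under 0.05, limma counted 3 of the 5 members, Hhip among them, and 25.7% of all genes tested.

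**Figure D1:**
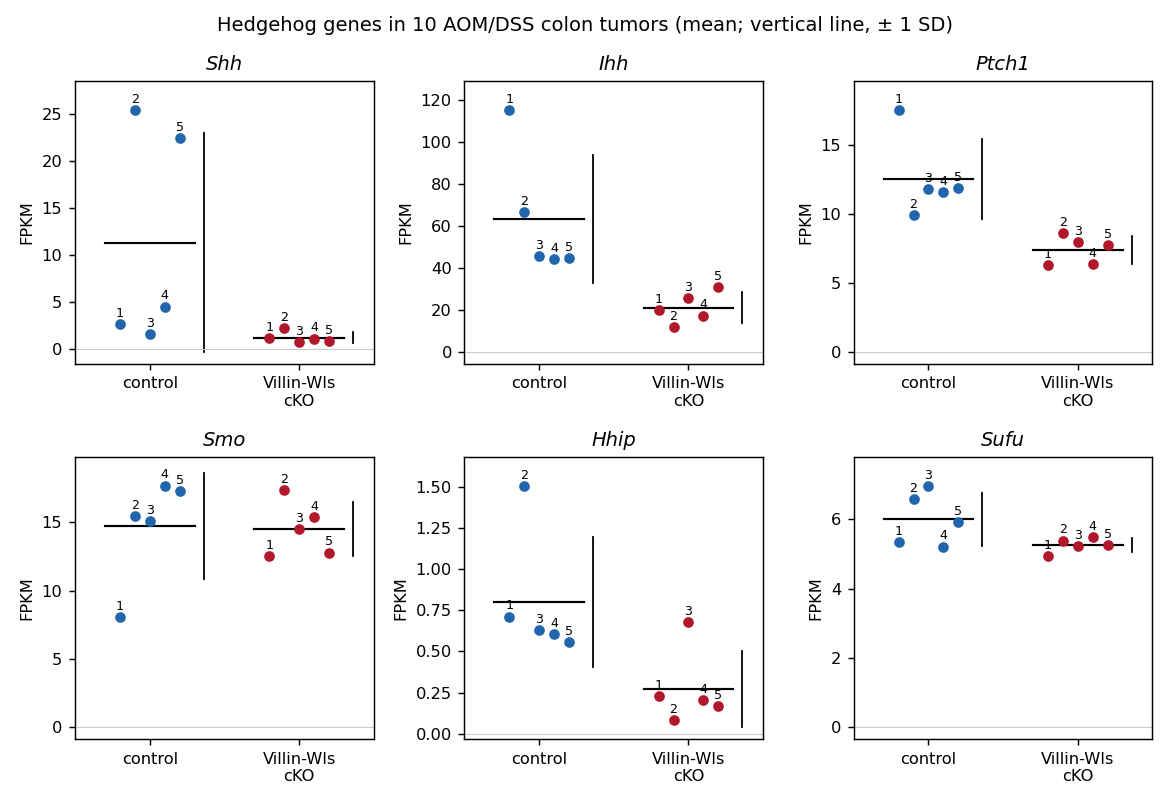
FPKM (vertical axes, linear, from near 0) of 5 Hedgehog genes and of Ihh in each of 5 control (blue) and 5 Villin-Wls cKO (red) tumors, with points numbered by tumor, horizontal lines at the mean and vertical lines of ± 1 SD. The groups do not overlap for Ptch1 and Ihh, the Shh mean of control tumors rests on tumors 2 and 5, and the Smo ranges overlap, with control tumor 1 lowest at 8.05 FPKM.

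Shh, on chromosome 5 from 28456815 to 28467256 (GRCm38, minus strand), varied more among control tumors than any other member. It was at 2.70, 25.5, 1.61, 4.54 and 22.4 FPKM in control tumors 1 to 5. In Villin-Wls cKO tumors 1 to 5 it was at 1.19, 2.28, 0.722, 1.13 and 0.852 FPKM. Control tumors 2 and 5 were far above the rest, while control tumor 3 lay inside the Villin-Wls cKO range and control tumor 1 just above it. Of the Villin-Wls cKO tumors, 4 were below the lowest control tumor, and tumor 2 fell inside the control range. The means were 11.3 ± 11.6 FPKM and 1.23 ± 0.615 FPKM (SD, n = 5 each), and the control median was 4.54 FPKM.

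On the log2(FPKM + 1) scale the Shh difference was -1.88 (standard error, SE, 0.62, 95% interval -3.27 to -0.50). The limma adjusted p was 0.0842 over all genes, and the exact two-sided permutation test of Shh alone gave p = 0.0159, where the smallest p that 5 against 5 tumors allow is 0.00794. Without control tumors 2 and 5 together, a choice made after their values were seen, the Shh difference was -0.79 (limma adjusted p = 0.170). With limma's tumor quality weights it was -2.25, with an adjusted p of 0.0483, and without control tumor 3 it was -2.29, with a limma adjusted p of 0.0326. Whether Shh passed the threshold thus depended on which tumors entered the fit and how they were weighted.

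Genes on the opposite strand overlap Shh, and strand use in quantification is not stated, so reads of Shh and of these genes cannot be told apart in its FPKM. One is Gm26894, a long intergenic noncoding RNA on chromosome 5 from 28466374 to 28480973 (plus strand), which crosses the 5′ end of Shh. The locus that the authors' assembly names Shh also reaches far beyond the gene, to the end of an overlapping antisense transcript, 9530036O11Rik, so that its FPKM may count reads from outside Shh. Gm26894 was at 0.385, 3.16, 0.915, 0.730 and 3.18 FPKM in control tumors 1 to 5 and between 0.201 and 0.788 FPKM in Villin-Wls cKO tumors, so that control tumors 2 and 5 were again the 2 highest. Rnf32, which lies further along the same chromosome from 29195992 to 29228457, was also highest there, at 88.7 and 70.1 FPKM, against at most 49.5 FPKM in the other 8 tumors. Gm26894 and Rnf32 were chosen after their values were seen. Their part in the Shh values was not tested.

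The 5 genes whose log2(FPKM + 1) followed Shh most closely over the 10 tumors were Bcorl1, which encodes a corepressor related to Bcor, Mir99ahg, a microRNA host transcript, Sh3rf1, a ubiquitin ligase, Fam53c and D230025D16Rik. Pearson's r was 0.98 for Bcorl1, 0.97 for Mir99ahg, 0.96 for Sh3rf1, 0.95 for Fam53c and 0.95 for D230025D16Rik, and after each group's mean was removed it lay between 0.90 and 0.98. These are descriptions over 10 tumors that include the same 2 high control tumors. None of the 5 genes passed the threshold. Bcorl1 was at 7.0 and 7.10 FPKM in control tumors 2 and 5 and at no more than 5.07 FPKM in the other 8. Ihh and Ptch1 were much less like Shh, with r of 0.48 and 0.42, and r was -0.25 and -0.42 after the group means were removed. Many other genes were highest in this pair of tumors: 708 of 15353 distinct entries (4.61%) had their 2 highest values in control tumors 2 and 5, and the 9 other pairs of control tumors had between 273 and 578.

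**Figure D2:**
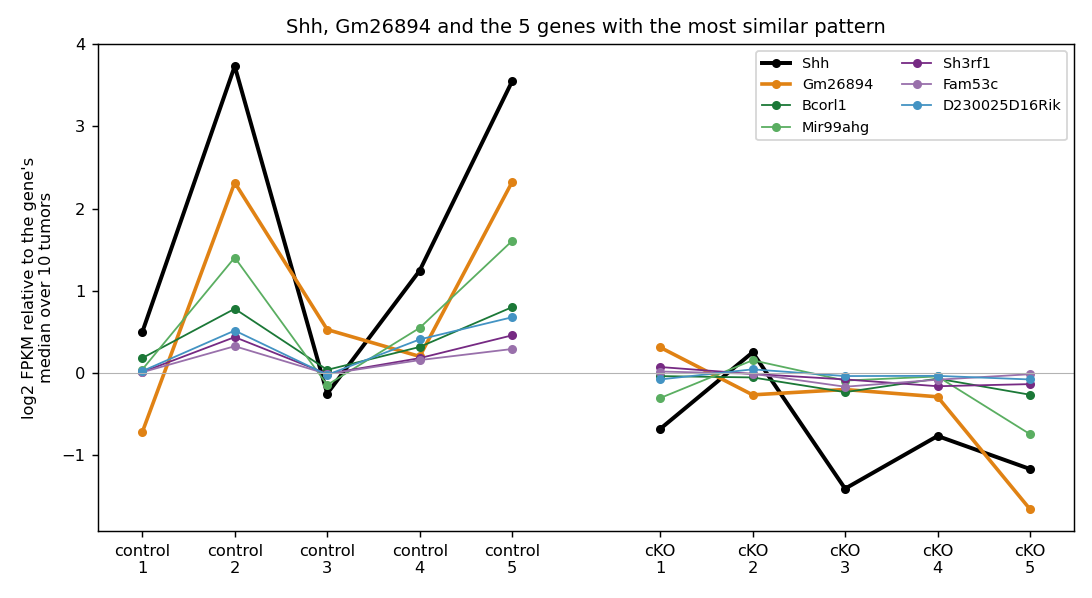
Log2 FPKM relative to the gene's own median over the 10 tumors (vertical axis) for Shh (black), Gm26894 (orange) and the 5 genes most like Shh, in each control and Villin-Wls cKO (cKO) tumor along the horizontal axis. All 7 genes peak in control tumors 2 and 5, with Shh rising furthest above its median.

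Ihh, the other Hedgehog ligand in the table, is on chromosome 1 from 74945315 to 74951672 (minus strand) and was the more abundant ligand in each of the 10 tumors. It was at 115, 66.5, 45.6, 44.3 and 44.7 FPKM in control tumors 1 to 5 and at 19.6, 11.9, 25.4, 17.1 and 30.6 FPKM in Villin-Wls cKO tumors 1 to 5. The groups did not overlap. The Ihh level was 42.6, 2.61, 28.3, 9.75 and 1.99 times that of Shh in control tumors 1 to 5, and between 5.21 and 36 times in Villin-Wls cKO tumors. Control tumor 1, highest for Ihh, was thus low for Shh, and control tumor 5, high for Shh, was among the lowest control tumors for Ihh. These ratios take the Shh FPKM as given, although it may count reads from outside Shh. Ihh fell by 1.51 in log2 units (SE 0.31, limma adjusted p = 0.0116). Of the 8 genes listed for ligands and their release, 4 were in the table. Of these 4, Ihh passed, beside 4.75% of all genes tested in the lower direction. The others were Hhat, which adds palmitate to Hedgehog proteins, at -0.29, Disp1, which exports the lipid-bearing ligand, at -0.25, and Scube1, of a family of secreted proteins that help its release, at 0.09. None of these 3 passed.

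Ptch1, the receptor, is on chromosome 13 from 63508328 to 63573598 (minus strand). It was at 17.5, 9.90, 11.8, 11.6 and 11.8 FPKM in control tumors 1 to 5 and at 6.29, 8.61, 7.96, 6.37 and 7.74 FPKM in Villin-Wls cKO tumors 1 to 5. All 5 Villin-Wls cKO tumors were below the lowest control tumor. Such a complete separation in the lower direction was found for 4.76% of all genes tested, and for 1 of the 5 members. Means were 12.5 ± 2.90 FPKM and 7.39 ± 1.02 FPKM (SD, n = 5 each). Ptch1 fell by 0.67 in log2 units (SE 0.14, 95% interval -0.99 to -0.35, limma adjusted p = 0.0149), and the exact two-sided permutation p was 0.00794, the smallest possible. It passed in each of the 10 fits that left out 1 tumor, with changes between -0.75 and -0.55. It also passed without control tumors 2 and 5 (-0.79, limma adjusted p = 0.0349) and without Villin-Wls cKO tumors 2 and 3 (-0.78, limma adjusted p = 0.0318).

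Hhip encodes a membrane-bound protein that binds Hedgehog ligands and keeps them from the receptor. It is on chromosome 8 from 79965851 to 80058006 (minus strand) and was the least abundant member. It was at 0.712, 1.5, 0.628, 0.608 and 0.555 FPKM in control tumors 1 to 5 and at 0.231, 0.0815, 0.678, 0.203 and 0.168 FPKM in Villin-Wls cKO tumors 1 to 5. Villin-Wls cKO tumor 3 lay within the control range and the other 4 lay below it. The means were 0.801 ± 0.397 FPKM and 0.272 ± 0.234 FPKM (SD, n = 5 each). The difference was -0.50 on the log2(FPKM + 1) scale (SE 0.17, 95% interval -0.87 to -0.12), with a limma adjusted p of 0.0947 and an exact two-sided permutation p of 0.0317. The mean over all 10 tumors was 0.537 FPKM, so Hhip entered the test through the control group alone. It therefore had to differ, and none of its p-values can count as support for a fall. At such low values the pseudocount of 1 shrinks the difference, which was -1.37 with a pseudocount of 0.1 (limma adjusted p = 0.0715).

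Ptch1 and Hhip are the members known as Gli targets, and the 250 bases before their RefSeq starts (GRCm38.p6) are shown for that reason, read 5′ to 3′ on the minus strand with each CpG in capitals. The Ptch1 window is chr13:63565736-63565985, inside the longer gene model given above, and the Hhip window is chr8:80058009-80058258.
Ptch1: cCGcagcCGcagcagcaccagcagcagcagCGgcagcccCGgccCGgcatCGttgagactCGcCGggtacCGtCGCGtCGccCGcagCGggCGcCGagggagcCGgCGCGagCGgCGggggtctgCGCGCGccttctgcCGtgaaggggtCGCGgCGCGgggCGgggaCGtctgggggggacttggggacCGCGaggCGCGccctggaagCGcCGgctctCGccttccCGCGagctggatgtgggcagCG
Hhip: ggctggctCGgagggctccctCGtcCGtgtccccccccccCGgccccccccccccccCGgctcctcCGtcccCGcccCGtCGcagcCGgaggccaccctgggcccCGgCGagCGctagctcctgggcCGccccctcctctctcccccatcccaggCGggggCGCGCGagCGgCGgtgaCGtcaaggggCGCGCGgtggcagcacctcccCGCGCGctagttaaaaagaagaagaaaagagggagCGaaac
Both windows were rich in CpG. That of Ptch1 held 41 CpG and was 78.4% G or C, with more CpG than 98.9% of 32851 promoter windows of this length. That of Hhip held 28 CpG and was 76% G or C, with more CpG than 92.4% of the windows. Smo held 15 CpG, Sufu 8 and Ihh, which is not a member, 24, and the median window held 6. The letters GACCACCCA, a Gli-binding sequence, and their inner part ACCACCC were searched on both strands. Each match of the longer letters also holds the shorter. Neither was found in the windows of Ptch1, Hhip, Smo, Sufu or Ihh. Of all windows, 0.225% held the longer letters and 3.92% the shorter. Absence was thus the usual outcome, and bases outside these windows were not searched. The search therefore cannot tell whether these genes have Gli sites.

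Smo, the transducer, is on chromosome 6 from 29735503 to 29761365 (plus strand), and it shares all its values with Gm13717, a processed pseudogene inside it, so that their reads cannot be told apart. It was at 8.05, 15.5, 15.1, 17.7 and 17.3 FPKM in control tumors 1 to 5 and at 12.5, 17.4, 14.5, 15.4 and 12.8 FPKM in Villin-Wls cKO tumors 1 to 5. The groups overlapped over most of their range, and the lowest value belonged to a control tumor. The means were 14.7 ± 3.89 FPKM and 14.5 ± 1.98 FPKM (SD, n = 5 each). The difference was 0.02 in log2 units (SE 0.19, 95% interval -0.41 to 0.44, limma adjusted p = 0.972), and its sign turned under other settings. Without control tumor 1 it was -0.17 (limma adjusted p = 0.372).

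Sufu, which binds Gli proteins in the cytoplasm, is on chromosome 19 from 46396896 to 46488804 (plus strand) and was the steadiest member. It was at 5.33, 6.59, 6.96, 5.21 and 5.90 FPKM in control tumors 1 to 5 and at 4.94, 5.38, 5.22, 5.48 and 5.24 FPKM in Villin-Wls cKO tumors 1 to 5. The Villin-Wls cKO values covered a narrow span at the lower end of the control range. The means were 6.0 ± 0.767 FPKM and 5.25 ± 0.207 FPKM (SD, n = 5 each). The difference of -0.16 in log2 units (SE 0.092, 95% interval -0.36 to 0.05) did not pass (limma adjusted p = 0.322), and the exact two-sided permutation p was 0.0952.

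FPKM is a level per transcript length, so the members can also be ordered within a group. The order is approximate, because the Shh values may count reads from outside Shh and Smo shares its values with Gm13717. In control tumors the order of mean levels was Smo at 14.7, Ptch1 at 12.5, Shh at 11.3, Sufu at 6.0 and Hhip at 0.801 FPKM. Smo and Ptch1 overlapped, and Shh overlapped all of its neighbours because of its spread from 1.61 to 25.5 FPKM. In Villin-Wls cKO tumors the order was Smo, Ptch1, Sufu, Shh and Hhip, with no overlap between any neighbours. Shh was below Sufu in each Villin-Wls cKO tumor and in 3 of the 5 control tumors, and by its control median, 4.54 FPKM, it was also below Sufu, at 5.90 FPKM.

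The level of Smo over that of Ptch1 in the same tumor, a ratio chosen after its values were seen and given as a description, was 0.459, 1.56, 1.28, 1.53 and 1.46 in control tumors 1 to 5. In Villin-Wls cKO tumors 1 to 5 it was 1.99, 2.01, 1.82, 2.42 and 1.65, above the highest control tumor in each. Control tumor 1 had more Ptch1 than Smo, and in the other 9 tumors Smo was the higher, by values that Smo shares with Gm13717. That tumor was the highest of all for Ptch1, Ihh and Gas1 and the lowest for Smo.

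Ptch1 and its co-receptors are expressed largely by stromal cells, and in bulk tumors fewer cells of a type and less RNA per cell cannot be told apart. The summed FPKM of 8 fibroblast markers lay between 286 and 1025 in control tumors (median 499.8) and between 384 and 1170 in Villin-Wls cKO tumors (median 624). Col3a1, a fibrillar collagen, made up most of these sums, and over the other 7 markers the medians were 192 and 187. None of the 8 passed the threshold or was at 0 in any tumor, and their median change with all tumors was 0.075 on the log2 scale. Its sign turned when tumors were left out. Without Villin-Wls cKO tumors 2 and 3 the median was -0.41, with 6 of the 8 below 0, and without control tumors 2 and 5 it was -0.29, with 7 of the 8 below 0. None of the markers passed in these fits, in which Ptch1 was at -0.78 and -0.79. The 2 lowest fibroblast sums, 286 and 288, belonged to control tumors 2 and 5, those with the highest Shh. All 6 smooth muscle markers had a higher mean in Villin-Wls cKO tumors and none passed, with sums from 64.9 to 151 in control tumors and from 83.2 to 163 in Villin-Wls cKO tumors. The 8 epithelial markers were detected in all tumors, with sums from 6105 to 8613 in control tumors and from 7460 to 9573 in Villin-Wls cKO tumors. Their changes were all above 0, and Krt20, a keratin of differentiated colonocytes, rose (176 ± 48.7 FPKM against 327 ± 67.9 FPKM, SD, n = 5 each, limma adjusted p = 0.0156). With quantile normalization the changes of Epcam (-0.082), Krt18 (-0.107) and Cldn7 (-0.0039) were below 0, and the other epithelial markers stayed above it. The epithelial sums of the groups overlapped, and the 7 markers other than Krt20 did not pass. Of the 3 leukocyte markers in the table, Cd3e, a subunit of the T cell receptor complex, was higher in Villin-Wls cKO tumors (0.364 ± 0.0935 FPKM against 1.10 ± 0.342 FPKM, SD, n = 5 each, limma adjusted p = 0.0138, and 0.0835 without control tumors 2 and 5). Its control mean was under the limit of 0.5 FPKM, so Cd3e entered the test only through the Villin-Wls cKO group and had to differ. Ptprc, found on all leukocytes, differed by 0.48 (limma adjusted p = 0.193), and the 3 markers summed to between 11.3 and 22.5 FPKM in control tumors and from 12.1 to 28.3 FPKM in the other group. None of 4 endothelial markers passed. The part of cell composition in the values of the Hedgehog genes was not tested.

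**Figure D3:**
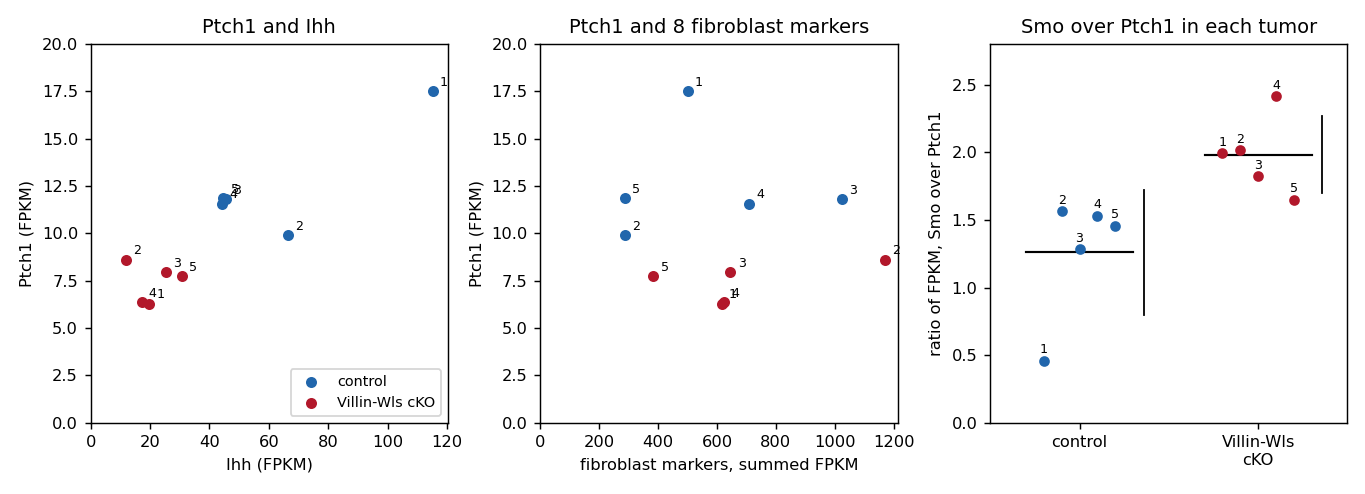
Ptch1 FPKM against Ihh FPKM (left) and against the summed FPKM of 8 fibroblast markers (middle), and the ratio of Smo to Ptch1 in each tumor with mean and ± 1 SD (right), for 5 control (blue) and 5 Villin-Wls cKO (red) tumors numbered as in the text. Ptch1 and Ihh are both highest in control tumor 1, the fibroblast sums of the groups overlap, and the 5 Villin-Wls cKO ratios, from 1.65 to 2.42, lie above those of control tumors.

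Of the 4 co-receptors listed, 3 were in the table, and Gas1 passed, beside 4.75% of all genes tested in the lower direction. Gas1, a membrane-anchored co-receptor that helps Ptch1 bind ligand, is on chromosome 13 from 60174405 to 60177365 (minus strand). It was at 13.9, 7.98, 6.83, 7.79 and 6.53 FPKM in control tumors 1 to 5 and at 3.23, 3.31, 3.29, 2.13 and 0.272 FPKM in Villin-Wls cKO tumors 1 to 5. The groups were far apart, and Villin-Wls cKO tumor 5 was the lowest by a wide margin. Gas1 fell by 1.56 in log2 units (SE 0.34, limma adjusted p = 0.0165). Without control tumors 2 and 5 the changes of Gas1 and Ihh were as large, at -1.68 and -1.58, and no longer passed (limma adjusted p = 0.0694 and 0.0560). The co-receptors Cdon and Boc differed by 0.00 and 0.44 and did not pass (limma adjusted p = 0.994 and 0.281).

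Of 12 cytoplasmic and ciliary regulators in the table, 0 passed in either direction, with a median change of 0.010, and 1 had an unadjusted p under 0.05, beside 25.7% of all genes tested. That gene was Gpr161, a ciliary receptor that keeps the pathway off, at 1.49 ± 0.521 FPKM in control tumors against 0.747 ± 0.179 FPKM in Villin-Wls cKO tumors (SD, n = 5 each, limma adjusted p = 0.0950). Hedgehog signals pass through the primary cilium, and 8 of 8 genes for ciliary transport were in the table. Among them Ift172 rose, Ift140 fell and the other 6 did not pass. Beside these, 6.12% of all genes tested passed in the higher direction and 4.75% in the lower. Ift172, a subunit of the complex that carries cargo to the ciliary tip, went from 24.6 ± 2.87 to 40.1 ± 4.38 FPKM without overlap (0.69 on the log2 scale, SE 0.10, limma adjusted p = 0.00198). Ift140, of the complex that carries cargo back, went from 9.99 ± 1.42 to 7.19 ± 0.797 FPKM (-0.42, SE 0.11, limma adjusted p = 0.0403), with overlap. Ift140 passed in only 2 of the 10 fits that left out 1 tumor, where its adjusted p ran from 0.0101 to 0.0918, and when the FPKM of all tumors were set to an equal sum it was -0.31 (limma adjusted p = 0.159).

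Of 6 genes of the gut mesenchyme known to lie downstream of Hedgehog, 2 were in the table and neither passed. Foxf2, a transcription factor of gut fibroblasts, differed by -0.46 and Bmp4, a secreted growth factor, by -0.25 (limma adjusted p = 0.317 and 0.733). Both had their lowest control values in control tumors 2 and 5, which also had the lowest fibroblast sums. Without these tumors Foxf2 was at -0.83 and Bmp4 at -0.75, and neither passed (limma adjusted p = 0.0906 and 0.260). Over the 29 other pathway genes tested, 3 fell (Ihh, Gas1 and Ift140), 1 rose (Ift172) and 25 did not pass. Of all genes tested, 4.75% passed in the lower direction and 6.12% in the higher. The median change of the 29 was -0.049, with 17 changes below 0 and 12 above. Complete separation was found for 2 of the 29 in the lower direction, Ihh and Gas1, beside 4.76% of all genes tested. In the higher direction it was found for 1 of the 29, Ift172, beside 893 of the 16757 genes tested.

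**Figure D4:**
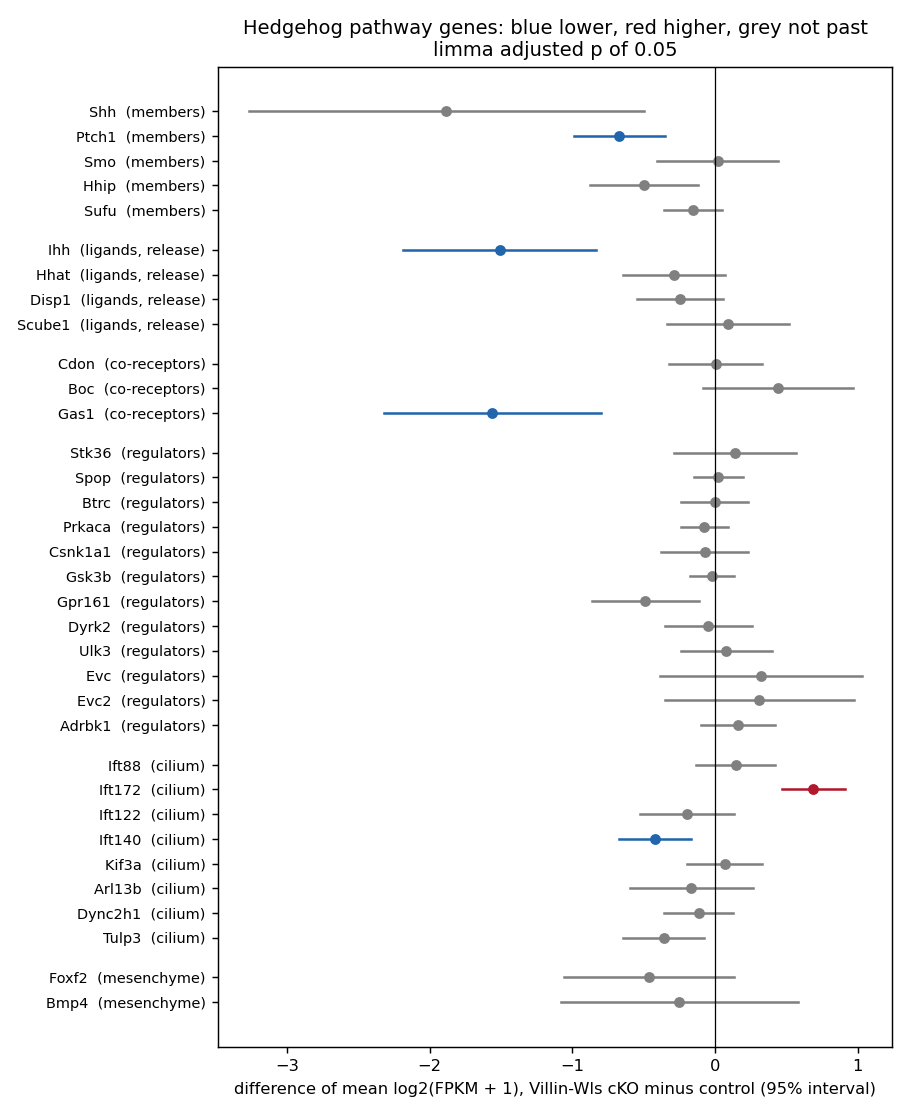
Difference of mean log2(FPKM + 1), Villin-Wls cKO minus control (horizontal axis), with its 95% interval, for the 5 members and 29 other Hedgehog pathway genes grouped by role, in blue where lower, in red where higher and in grey where not past a limma adjusted p of 0.05. Ptch1, Ihh, Gas1 and Ift140 lie below 0, Ift172 lies above, and the interval of Shh, from -3.27 to -0.50, is the widest.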

How the data were processed

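Macrodissected colon tumors, 5 control and 5 Villin-Wls cKO, were profiled by RNA sequencing of stranded mRNA libraries. Per the methods and processing notes, the authors used FastQC for read quality, TopHat 2.1.1 for mapping to GRCm38.p5, and Cufflinks 2.2.1 with Cuffdiff for quantification. The deposited values are FPKM, 1 per gene name and tumor. Whether strand was used and how genes were chosen is not stated in the sources used here. Of the 16875 names, 2419 share all values with another name. The FPKM summed to between 1208000 and 1534000 per tumor, with medians of 11.3 to 12.2, and r of log2(FPKM + 1) between tumors lay between 0.918 and 0.976. Whole reads could not be recovered from low values, so depth is unknown and precision rests on the tumors. All columns were assigned to a tumor by label, and 0 were left over.

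Genes with a mean of at least 0.5 FPKM were tested with limma 3.58.1 (R 4.3.3) on log2(FPKM + 1), with an eBayes trend, no covariate and Benjamini-Hochberg adjustment over 16757 genes at 0.05, and the method was tested on simulated data. The intervals given are the 95% intervals of single genes, not adjusted. Single members were also compared by an exact two-sided permutation test that enumerated the 252 ways to split the tumors. Tables and figures were made with Python 3.11.15, pandas 2.3.3, numpy 2.4.6 and matplotlib 3.10.9. Gene positions follow GENCODE M21 (GRCm38). Promoter sequences are from RefSeq, in which 4 of the 5 members matched. The rule for names took all members, all listed ligands and every listed pathway gene past the threshold, and other names were added after their values were seen. The members, the lists and the squamous tumors left out together were chosen with earlier results of these data known. Alternatives varied the pseudocount, scaling, filter, variance model, weights, block, identical names and the tumors included. One listed pathway gene is not reported here.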

Additional observations from a re-analysis of the deposited data

Results flagged for a closer look

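Of 10 sets of 5 tumors examined (5 members in 2 groups), 4 held 1 tumor far from the other 4 by Dixon's test, which flags about 1 in 20 by chance. Control tumor 1 was high for Ptch1, at 17.5 FPKM, and low for Smo, at 8.05 FPKM. Control tumor 2 was high for Hhip, at 1.5 FPKM. Villin-Wls cKO tumor 3 was high for Hhip among its group, at 0.678 FPKM.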

How the results depend on the processing

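The numbers of the labels did not pair the tumors (correlations of same-numbered tumors between -0.087 and 0.16). With these numbers as a replicate block, Ptch1 kept its change of -0.67 with a limma adjusted p of 0.0580, and the number of members lower past the threshold was 0. Tumor quality weights gave Shh -2.25 and brought that number to 2. For Smo the sign turned with quantile normalization (-0.022), with quality weights (-0.051) and without Villin-Wls cKO tumors 2 and 3 (-0.070). Leaving out 1 tumor at a time gave -2.29 to -1.45 for Shh, -0.17 to 0.091 for Smo and 1 to 2 members lower past the threshold. In these fits 1231 to 1983 of all genes passed in either direction. Without Villin-Wls cKO tumors 2 and 3, Shh was at -1.97 (limma adjusted p = 0.182). The count of all genes past the threshold fell from 1822 to 1092 without those tumors and to 790 without control tumors 2 and 5. Of all calls, 796 were lower and 1026 higher. The split was 412 to 1385 with equal FPKM sums and 1124 to 891 with quantile normalization. Hhip gave no value at a mean of at least 5 FPKM. Rescaling to an FPKM sum of 1000000 gave Ptch1 means of 9.02 and 5.79 FPKM. The cause of these shifts was not tested. The genes most like Gli1 were planned and not run. Without counts, no counting error could be given for the low values of Hhip.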
